A study of Homo sapiens with 24 samples.

Results

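The comparison described here is the response of MCF10A cells to epidermal growth factor (EGF) after transfection with an oligonucleotide directed at miR-20a, set against the response of cells given a control oligonucleotide. It uses 16 of the 24 arrays of the study: 8 si-miR-20a arrays and 8 control arrays, with 2 replicates at each of 0, 30, 60 and 120 min of EGF. MCF10A is a non-tumorigenic human cell line from breast epithelium. Both groups were transfected with Oligofectamine, si-miR-20a cells with siRNA oligonucleotides against hsa-miR-20a and control cells with a non-targeting one, and both were grown in medium that itself contained EGF, insulin, cholera toxin, hydrocortisone and horse serum. The arrays were Affymetrix Human Gene 1.0 ST, and levels are log2 values per probe set as deposited. The sources used here give neither the EGF dose of the stimulation nor any starvation before it. Mature miR-20a was not measured, and no group received vehicle in place of EGF, so EGF and time cannot be told apart. The labels call the replicates biological without naming separate transfections, so the p-values measure the spread between these arrays, which may be technical.

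EGF binds the receptor EGFR and switches on the RAS and ERK kinase cascade. Within minutes this induces immediate early transcription factors such as FOS and EGR proteins, followed by feedback inhibitors, cytokines and new EGF receptor ligands, after which many of the transcripts decay again. miR-20a is a microRNA of the miR-17 family, made from the primary transcript MIR17HG, and it represses mRNAs that carry matches to its seed. An oligonucleotide against it can therefore meet close relatives. Its mature RefSeq sequence (GRCh38.p14, chr13:91351072-91351094, plus strand) is shown 5′ to 3′ with the neighbour from the same transcript, miR-17-5p, and with miR-93-5p, a relative from chromosome 7. The capitals mark the seed, bases 2 to 8, which 8 RefSeq mature human microRNAs share.

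hsa-miR-20a-5p: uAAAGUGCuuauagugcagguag
hsa-miR-17-5p: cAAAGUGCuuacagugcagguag
hsa-miR-93-5p: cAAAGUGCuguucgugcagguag

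Over their whole length, miR-17-5p has 21 and miR-93-5p 19 of the 23 bases of miR-20a-5p.

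For each probe set the early level is the mean of 0 and 30 min and the late level the mean of 60 and 120 min, 4 arrays each. The difference of the response is the late minus early change in si-miR-20a cells minus the same change in control cells. It equals the late difference between the transfections minus the early difference, so it can arise from a lower start, from a higher later level, or from both. Start stands here for the early level, which includes 30 min of EGF, unless 0 min alone is named. IL24, a cytokine of the IL10 family, was the single call among 19460 probe sets (0.00514%) at an adjusted p under 0.05, with a larger rise in si-miR-20a cells. At an unadjusted p under 0.05, limma gave 823 probe sets a difference of the response above 0 (4.23%) and 333 one below 0 (1.71%). A difference above 0 can also be a smaller fall in si-miR-20a cells, not only a larger rise. Within each transfection, 1100 probe sets changed from early to late in si-miR-20a cells (5.65%) and 473 in control cells (2.43%), with 367 called in both.

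Those data limit differences of the response to a modest size for most transcripts. The 95% interval of the difference lay within 1 log2 unit of 0 for 18012 probe sets (92.6%) and within 1.5-fold for 13017 (66.9%). At the median it reached 0.332 to either side, and the median difference over all probe sets was 0.013. The count of calls was unstable: it was 14 without si-miR-20a 120 min replicate 1, 6 without si-miR-20a 0 min replicate 1 and 2 without si-miR-20a 60 min replicate 2. It was 0 without any 1 of these 9 arrays: si-miR-20a replicate 2 at 0 min, replicate 1 at 30 min, replicate 1 at 60 min and replicate 2 at 120 min, and control replicate 2 at 0, 30 and 60 min and replicates 1 and 2 at 120 min. The lists of cell type markers gave 0 calls for the difference of the response. Averaged over a list, basal epithelial markers lay between 11.2 and 11.3 on arrays of both groups, and at an unadjusted p under 0.05 for that difference 0 of 7 were higher or lower. Luminal markers lay between 7.49 and 7.62 on si-miR-20a arrays and between 7.38 and 7.60 on control arrays (1 of 9, KRT8, lower). Mesenchymal markers lay between 6.58 and 6.69 on si-miR-20a arrays and between 6.65 and 6.80 on control arrays (1 of 11, DCN, higher), and blood and endothelial markers between 6.53 and 6.91 on si-miR-20a arrays and between 6.60 and 6.78 on control arrays (0 of 8). These averages join members far apart: luminal KRT8 lay between 10.5 and 10.9 and PGR between 4.51 and 5.33. Mesenchymal VIM lay between 11.1 and 11.7 and LUM between 2.68 and 4.53. Endothelial CDH5 lay between 10.01 and 11.2 and the blood marker PTPRC between 3.74 and 4.95. Between the transfections themselves, calls at an adjusted p under 0.05 went both ways. Early, 2 of 7 basal markers were higher, 1 of 9 luminal higher and 1 lower, and 1 of 11 mesenchymal lower. The shares of all probe sets were 4.79% higher and 7.17% lower. Late, 1 basal was higher, 1 luminal higher and 1 lower, 1 mesenchymal higher and 2 lower, and 1 blood or endothelial higher. The late shares were 8.95% and 7.75%. Among these calls, the basal keratin KRT14 was higher in si-miR-20a cells by 0.25 ± 0.05 early (limma adjusted p = 0.0024). The mesenchymal VIM was lower late, at -0.27 ± 0.07 (adjusted p = 0.012).

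IL24 is secreted by epithelial and immune cells and acts on keratinocytes through IL20 receptors. Its level in si-miR-20a cells was 4.96 and 5.06 at 0 min, 5.80 and 5.81 at 30 min, 7.58 and 7.51 at 60 min, and 8.96 and 9.18 at 120 min. In control cells it was 5.33 and 5.58, 6.05 and 6.28, 7.41 and 7.10, and 8.21 and 8.22 at those times. The si-miR-20a arrays thus lay below both control arrays at 0 and 30 min and above both at 60 and 120 min. From early to late IL24 rose by 2.90 ± 0.09 in si-miR-20a cells and by 1.93 ± 0.09 in control cells (log2, SE of the model, 4 arrays per mean). The difference of the response was 0.98 ± 0.12, or 1.97-fold, with a 95% interval of 0.71 to 1.24 (limma adjusted p = 0.027). Both ends contributed: the early difference was -0.40 ± 0.09 (adjusted p = 0.0076) and the late difference 0.57 ± 0.09 (adjusted p = 0.00044). The early difference, which averages 0 and 30 min, made up 41.2% of the whole. At 0 min alone the difference of -0.44 ± 0.12 did not pass (adjusted p = 0.07), and by that split IL24 counts as a larger later level. The call held in 6 of 16 fits without 1 array, where the adjusted p ran from 0.012 to 0.14 and the difference from 0.90 to 1.05. It was lost without any of the 9 arrays just named, and without si-miR-20a 30 min replicate 2 (adjusted p = 0.059).

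**Figure D1:**
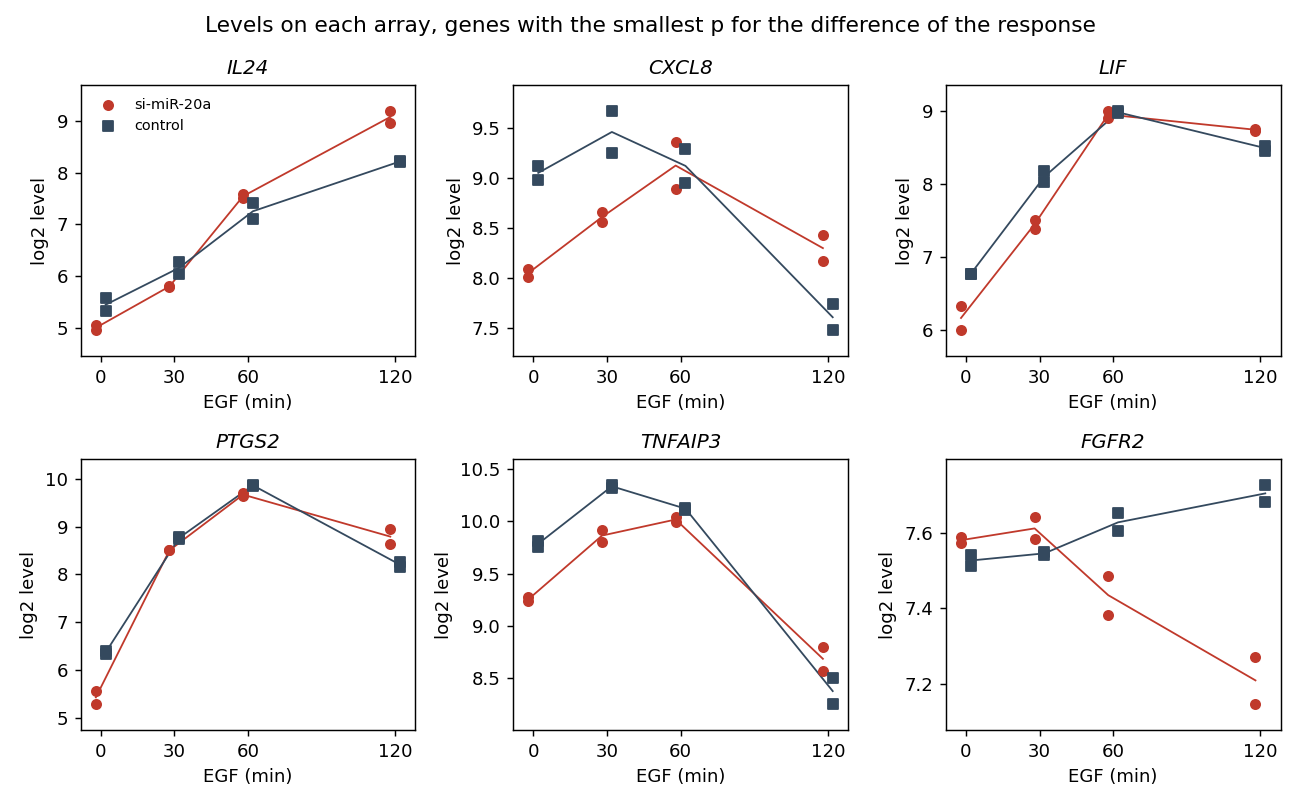
Log2 level on each array (y axis) against minutes of EGF (x axis) for 5 genes and FGFR2. The 5 had the smallest p for a difference of the response above 0. Circles are si-miR-20a arrays and squares are control arrays, with points shifted by 2 min to either side and lines through the means of 2. CXCL8, LIF, PTGS2 and TNFAIP3 begin lower in si-miR-20a cells, with a smaller gap at 60 min than at 0 min. PTGS2 and TNFAIP3 are still below both control arrays at 60 min. IL24 crosses between 30 and 60 min, and FGFR2 parts after 30 min. The y axes differ and do not start at 0.

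The 4 genes next after IL24 by p for a difference of the response above 0 were CXCL8, LIF, PTGS2 and TNFAIP3. These 4 did not pass in that test (limma adjusted p = 0.056 for each). Their early difference did pass and their late difference did not, which makes them lower starts. That late difference averages 60 and 120 min. At 120 min alone CXCL8 was above control by 0.69 ± 0.19 (limma adjusted p = 0.033) and PTGS2 by 0.59 ± 0.12 (adjusted p = 0.0078). LIF and TNFAIP3 did not pass there (adjusted p = 0.2 and 0.053). CXCL8 encodes interleukin 8, a chemokine that attracts neutrophils. On si-miR-20a arrays CXCL8 read 8.09 and 8.02 at 0 min, 8.57 and 8.66 at 30 min, 9.37 and 8.89 at 60 min, and 8.17 and 8.44 at 120 min. The control arrays had 8.98 and 9.13, 9.67 and 9.26, 9.30 and 8.95, and 7.48 and 7.74. Control cells thus began about a log2 unit higher, met si-miR-20a cells at 60 min and ended lower. The early difference was -0.93 ± 0.13 (adjusted p = 0.00038), the late difference 0.35 ± 0.13 (adjusted p = 0.098) and the difference of the response 1.27 ± 0.19, with a 95% interval of 0.87 to 1.68. At 120 min against 0 min CXCL8 had fallen in control cells, with a log2 change of -1.44 ± 0.19 (adjusted p = 0.0003), while the change in si-miR-20a cells was 0.25 ± 0.19 (adjusted p = 0.52).

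LIF, a cytokine that signals through gp130 and STAT3, kept its lower level for the first 30 min. It stood at 6.34 and 6.0, 7.51 and 7.39, 9.0 and 8.91, and 8.73 and 8.76 in si-miR-20a cells at 0, 30, 60 and 120 min. Control cells had 6.78 and 6.77, 8.18 and 8.03, 9.0 and 8.97, and 8.53 and 8.46. The early difference of -0.63 ± 0.08 (limma adjusted p = 0.00012) accounted for 85.1% of the difference of the response, 0.74 ± 0.11. LIF rose from early to late in both, by 2.04 ± 0.08 in si-miR-20a cells and by 1.30 ± 0.08 in control cells, to nearly the same level at 60 min.

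PTGS2, the inducible cyclooxygenase that makes prostaglandins, differed most at 0 min. In si-miR-20a cells it was at 5.57 and 5.29, 8.50 and 8.51, 9.63 and 9.71, and 8.64 and 8.95 at 0, 30, 60 and 120 min. Control cells showed 6.33 and 6.41, 8.75 and 8.79, 9.87 and 9.86, and 8.26 and 8.15. The si-miR-20a arrays were the lower ones at 0, 30 and 60 min and the higher ones at 120 min. PTGS2 was lower at 0 min by a log2 difference of -0.94 ± 0.12 (limma adjusted p = 0.0006) and higher at 120 min by 0.59 ± 0.12 (adjusted p = 0.0078), and the difference of the response was 0.80 ± 0.12, of which 75.3% came from the early difference.

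TNFAIP3 encodes A20, which shuts off NF-kappaB signalling. Its si-miR-20a levels were 9.27 and 9.24, 9.92 and 9.81, 10.04 and 9.99, and 8.57 and 8.80 at 0, 30, 60 and 120 min, against 9.81 and 9.76, 10.32 and 10.34, 10.13 and 10.11, and 8.50 and 8.26 in control cells. Every array of both groups was lower at 120 min than at 60 min. From early to late the change was -0.21 ± 0.07 in si-miR-20a cells (limma adjusted p = 0.089) and -0.81 ± 0.07 in control cells (adjusted p = 3.7e-06). A lower start, -0.50 ± 0.07 (adjusted p = 0.00019), therefore made up 83.0% of the TNFAIP3 difference of 0.60 ± 0.09, a measure in which neither group rose.

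Promoters were searched for motifs of factors that act on such genes, in IL24 and the 4 lower starts, of which LIF had no window in the table used. Those of CXCL8 and TNFAIP3, the 2 with matches, are shown: RefSeq windows (GRCh38.p14, 250 bases before to 50 after the start of the gene, in the direction of transcription). A pair of motifs was searched on both strands: AP-1, the site of FOS and JUN dimers (TGANTCA), and a kappaB-like site (GGNNNTTCC). AP-1 letters occur in 7.71% and kappaB-like letters in 20.1% of 35116 windows of this length. CXCL8 lies at chr4:73740319-73740618 on the plus strand and TNFAIP3 at chr6:137867009-137867308 on the plus strand. Capitals mark the matches: in CXCL8 an AP-1 match followed by a kappaB-like one, in TNFAIP3 a pair of kappaB-like matches on the opposite strand.

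CXCL8: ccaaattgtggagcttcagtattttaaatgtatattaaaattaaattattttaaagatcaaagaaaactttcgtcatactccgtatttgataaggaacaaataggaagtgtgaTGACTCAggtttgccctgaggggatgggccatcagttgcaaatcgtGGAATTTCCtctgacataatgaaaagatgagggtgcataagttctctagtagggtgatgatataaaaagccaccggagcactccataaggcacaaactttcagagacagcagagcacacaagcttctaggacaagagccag
TNFAIP3: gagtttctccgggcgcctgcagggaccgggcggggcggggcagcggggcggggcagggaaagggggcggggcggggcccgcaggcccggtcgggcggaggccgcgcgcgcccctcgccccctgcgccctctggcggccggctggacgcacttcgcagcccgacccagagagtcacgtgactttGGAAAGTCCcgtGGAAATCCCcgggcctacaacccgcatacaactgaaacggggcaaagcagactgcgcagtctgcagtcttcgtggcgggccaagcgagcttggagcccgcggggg

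In the windows of IL24 and PTGS2 neither set of letters occurred. These matches describe the letters only, since no factor binding was measured.

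A second pattern was an early difference that did not pass, followed by a higher later level. The genes that show it here were chosen after their values were seen, and none passed for the difference of the response. In them the early difference made up between -14.6% (G2E3) and 24.5% (EGR3) of the difference of the response, so their starts were not always equal. HBEGF is a ligand of the EGF receptor. Its si-miR-20a levels were 9.06 and 9.05, 9.79 and 9.86, 10.75 and 10.73, and 10.43 and 10.51 at 0, 30, 60 and 120 min, against 9.21 and 9.08, 9.94 and 9.96, 10.44 and 10.36, and 10.04 and 10.15 in control cells. HBEGF was slightly below both control arrays at 0 and 30 min and above both at 60 and 120 min. The early difference was -0.11 ± 0.05 (limma adjusted p = 0.25), the late difference 0.36 ± 0.05 (adjusted p = 0.00043) and the difference of the response 0.46 ± 0.08 (adjusted p = 0.058).

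FGF5, a fibroblast growth factor, was above both control arrays at 60 min by little and at 120 min by more. It read 6.92 and 7.04, 7.16 and 6.91, 7.44 and 7.35, and 8.92 and 9.08 in si-miR-20a cells, against 7.08 and 6.90, 7.22 and 6.99, 7.22 and 7.12, and 7.64 and 7.43 in control cells. At 120 min FGF5 was 1.46 ± 0.17 above control (limma adjusted p = 0.00019), and the difference of the response was 0.88 ± 0.17 (adjusted p = 0.19). It rose by 2.01 ± 0.17 at 120 min against 0 min in si-miR-20a cells (adjusted p = 4.1e-06), with a change of 0.54 ± 0.17 in control cells (adjusted p = 0.15). FGF5 is thus an example of a rise, not of a slower fall.

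EGR3, an immediate early zinc finger factor, was highest at 60 min in both and then stood higher in si-miR-20a cells at 120 min. At 0, 30, 60 and 120 min the si-miR-20a arrays had 4.83 and 4.10, 8.01 and 7.87, 9.44 and 9.24, and 8.49 and 8.66, against 4.24 and 4.63, 8.43 and 8.35, 9.39 and 9.26, and 7.20 and 7.35 on control arrays. The 120 min difference for EGR3 was 1.30 ± 0.18 (limma adjusted p = 0.0005), and the difference of the response was 0.87 ± 0.18 (adjusted p = 0.2). NCOA7, a nuclear receptor coactivator, had a late difference of 0.38 ± 0.06 (adjusted p = 0.00037). G2E3, a ubiquitin ligase of the cell cycle, had one of 0.55 ± 0.06 (adjusted p = 1.3e-05). Their early differences of -0.11 and 0.07 did not pass, and their differences of the response were 0.49 ± 0.08 and 0.48 ± 0.08 (adjusted p = 0.058 for both). DUSP1, a phosphatase that inactivates MAP kinases, was induced to between 10.97 and 11.14 at 30 min on all 4 arrays and returned to 8.92 and 8.73 at 120 min in si-miR-20a cells, against 8.27 and 8.14 in control cells.

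**Figure D2:**
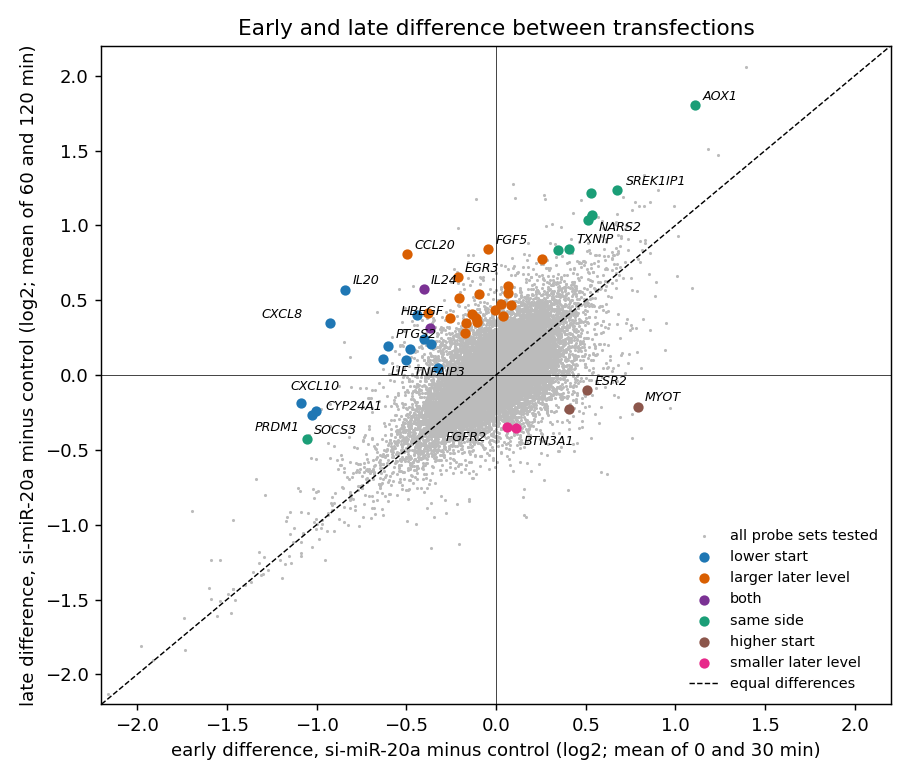
Each point is a probe set, with the early difference between transfections (mean of 0 and 30 min, log2) on the x axis and the late difference (mean of 60 and 120 min, log2) on the y axis, si-miR-20a minus control, and the dashed line marking equal differences. Coloured points are the 47 genes with an unadjusted p under 0.001 for the difference of the response, coloured by class. Lower starts such as CXCL8 lie left of the vertical axis, and larger later levels such as FGF5 lie above the horizontal axis.

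To describe how often each pattern occurred, the 47 genes with an unadjusted p under 0.001 were divided by which difference passed at an adjusted p under 0.05. The rule behind these classes uses parts of the difference itself, so the counts carry no test. Before 1 probe set was kept per gene these were 48 probe sets (0.247%), 43 higher (0.221%) and 5 lower (0.0257%). Of 42 genes with a higher value, 13 were lower starts, 19 larger later levels, 2 both and 8 different from control on the same side at both ends. Taking 0 min alone as the start gave 8 lower starts, 23 larger later levels, 6 on the same side and 5 in no class. The lower starts by the first split included the cytokine IL20, the chemokines CXCL5 and CXCL10, and PRDM1, a transcriptional repressor. Among the larger later levels were STC2, a secreted glycoprotein, the chemokine CCL20, TNFSF18, a ligand of the TNF family, and the replication factor MCM10. TNFSF18 was dim on arrays of both groups. It lay below the lower quartile of the arrays in si-miR-20a cells at 0 and 30 min. Control cells did so at 30 and 60 min and read 4.84 and 5.19 at 0 min and 4.94 and 4.97 at 120 min. SLC2A3, a glucose transporter, and its near copy SLC2A14 had parallel values (differences of the response 0.64 and 0.68), but their transcripts may share probes and cannot be counted as separate.

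PRDM1 and SOCS3 show that a higher value of this measure need not be a stronger rise. PRDM1 in si-miR-20a cells had 5.57 and 5.88 at 0 min and 5.50 and 5.89 at 120 min, while control cells had 6.85 and 6.69 at 0 min and 5.33 and 5.42 at 120 min. Its change at 120 min against 0 min was -0.03 ± 0.17 in si-miR-20a cells (limma adjusted p = 0.96) and -1.39 ± 0.17 in control cells (adjusted p = 0.00017). SOCS3, an inhibitor of cytokine receptor signalling, was lower at both ends, with an early difference of -1.06 ± 0.11 (adjusted p = 1.8e-05) and a late difference of -0.43 ± 0.11 (adjusted p = 0.013). AOX1, an aldehyde oxidase, was higher at both ends, by 1.11 ± 0.10 (adjusted p = 7.4e-06) and 1.81 ± 0.10 (adjusted p = 7.7e-08).

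In the other direction 5 genes had an unadjusted p under 0.001 and none was called, with FGFR2 nearest. FGFR2 is a receptor tyrosine kinase for fibroblast growth factors. It had 7.57 and 7.59, 7.64 and 7.58, 7.49 and 7.38, and 7.15 and 7.27 in si-miR-20a cells at 0, 30, 60 and 120 min, against 7.51 and 7.54, 7.55 and 7.54, 7.60 and 7.65, and 7.73 and 7.68 in control cells. The curves parted after 30 min: the early difference was 0.06 ± 0.05 (limma adjusted p = 0.53), the late difference -0.35 ± 0.05 (adjusted p = 0.00027) and the difference of the response -0.41 ± 0.07 (adjusted p = 0.084). BTN3A1, a butyrophilin that T cells recognise, read 7.15 and 6.97 at 0 min and 6.66 and 6.65 at 120 min in si-miR-20a cells, against 6.87 and 6.77 and then 7.12 and 7.15 in control cells. It thus began above both control arrays and ended below them, with a late difference of -0.36 ± 0.07 (adjusted p = 0.0017) and a difference of the response of -0.47 ± 0.09 (adjusted p = 0.19). MYOT, a muscle Z disc protein, ESR2, the second oestrogen receptor, and OR4N2, an olfactory receptor, began higher in si-miR-20a cells. Their early differences were 0.79 ± 0.13, 0.51 ± 0.09 and 0.41 ± 0.10, and their differences of the response -1.0 ± 0.18, -0.61 ± 0.12 and -0.63 ± 0.14 (adjusted p = 0.13, 0.2 and 0.26). MYOT did not exceed 4.46 and OR4N2 did not exceed 4.50 on these arrays, below the lower quartile of each array (4.95 to 4.97).

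When each time was set against 0 min on its own, calls for a different response came at 120 min, and whether 120 min differed from 60 min in this was not tested. Limma called 0 probe sets at 30 min and 0 at 60 min, with 557 (2.86%) and 609 (3.13%) at an unadjusted p under 0.05. At 120 min it called 7 (0.036%), all with a higher value in si-miR-20a cells, and 1514 (7.78%) at an unadjusted p under 0.05. The 7 genes were CYP24A1 at 2.21 ± 0.26 and PTGS2 at 1.53 ± 0.17 (adjusted p = 0.0052 for both), IL24 at 1.30 ± 0.18 (adjusted p = 0.018), and CXCL8 at 1.69 ± 0.27, DNA2 at 1.03 ± 0.16, TNFAIP3 at 0.84 ± 0.13 and NCOA7 at 0.73 ± 0.11 (adjusted p = 0.048 for each). The count depended on single arrays. It was 195 without si-miR-20a 120 min replicate 1, 0 without si-miR-20a 0 min replicate 2 and 1 without si-miR-20a 120 min replicate 2. It was 4 without si-miR-20a 30 min replicate 1 or 2, and 3 without any 1 of the 8 control arrays. PTGS2 was called in 15 of 16 fits without 1 array, CYP24A1 in 14, IL24 in 10, DNA2 in 4, CXCL8 in 3, TNFAIP3 in 2 and NCOA7 in 1. PTGS2 and CYP24A1 lost the call without si-miR-20a 0 min replicate 2 (adjusted p = 0.056 and 0.058), and CYP24A1 also without si-miR-20a 120 min replicate 2 (0.065). IL24 lost it without si-miR-20a replicate 1 or 2 at 0 min or replicate 2 at 120 min, or without control replicate 2 at 0 min or either replicate at 120 min (0.073 to 0.13).

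CYP24A1, the enzyme that breaks down active vitamin D, had the widest swing of the 7. Its si-miR-20a levels were 5.58 and 5.30, 5.54 and 5.69, 5.26 and 5.02, and 7.32 and 7.48 at 0, 30, 60 and 120 min, against 6.67 and 6.77, 6.28 and 6.40, 6.44 and 6.67, and 6.58 and 6.36 in control cells. It was below both control arrays for the first hour and above both at 120 min. The differences at 0, 30, 60 and 120 min were -1.28 ± 0.19, -0.73 ± 0.19, -1.42 ± 0.19 and 0.93 ± 0.19, each called (limma adjusted p = 0.0012, 0.036, 0.00037 and 0.006). The average over 60 and 120 min cancels these, so CYP24A1 had a difference of the response of 0.76 ± 0.19 (adjusted p = 0.4). CYP24A1 rose by 1.96 ± 0.19 at 120 min against 0 min in si-miR-20a cells (adjusted p = 9.7e-06), with a change of -0.25 ± 0.19 in control cells (adjusted p = 0.71).

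DNA2 and NCOA7 reached the 120 min call from the other side. DNA2, a nuclease and helicase of DNA replication, was at 6.32 and 6.04 at 0 min and 6.58 and 6.46 at 120 min in si-miR-20a cells, against 6.26 and 6.42 and then 5.61 and 5.71 in control cells. It fell by 0.68 ± 0.11 in control cells (limma adjusted p = 0.002), and its change in si-miR-20a cells was 0.35 ± 0.11 (adjusted p = 0.074). NCOA7 likewise fell by 0.50 ± 0.08 in control cells (adjusted p = 0.0018), with a change of 0.23 ± 0.08 in si-miR-20a cells (adjusted p = 0.11). TXNIP is an inhibitor of thioredoxin and of glucose uptake that is listed elsewhere as a miR-17 family target. It was already higher in si-miR-20a cells early, by 0.41 ± 0.07 (limma adjusted p = 0.0017), and at 60 min, by 0.44 ± 0.10 (adjusted p = 0.017). At 120 min TXNIP was higher by 1.24 ± 0.10 (adjusted p = 8.4e-06). It had fallen by 0.59 ± 0.10 in si-miR-20a cells and by 1.45 ± 0.10 in control cells since 0 min, and its difference of the response at 120 min against 0 min, 0.86 ± 0.14, did not pass (adjusted p = 0.063). Against the mean of 0 and 30 min it did, at 0.84 ± 0.12 (adjusted p = 0.016).

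**Figure D3:**
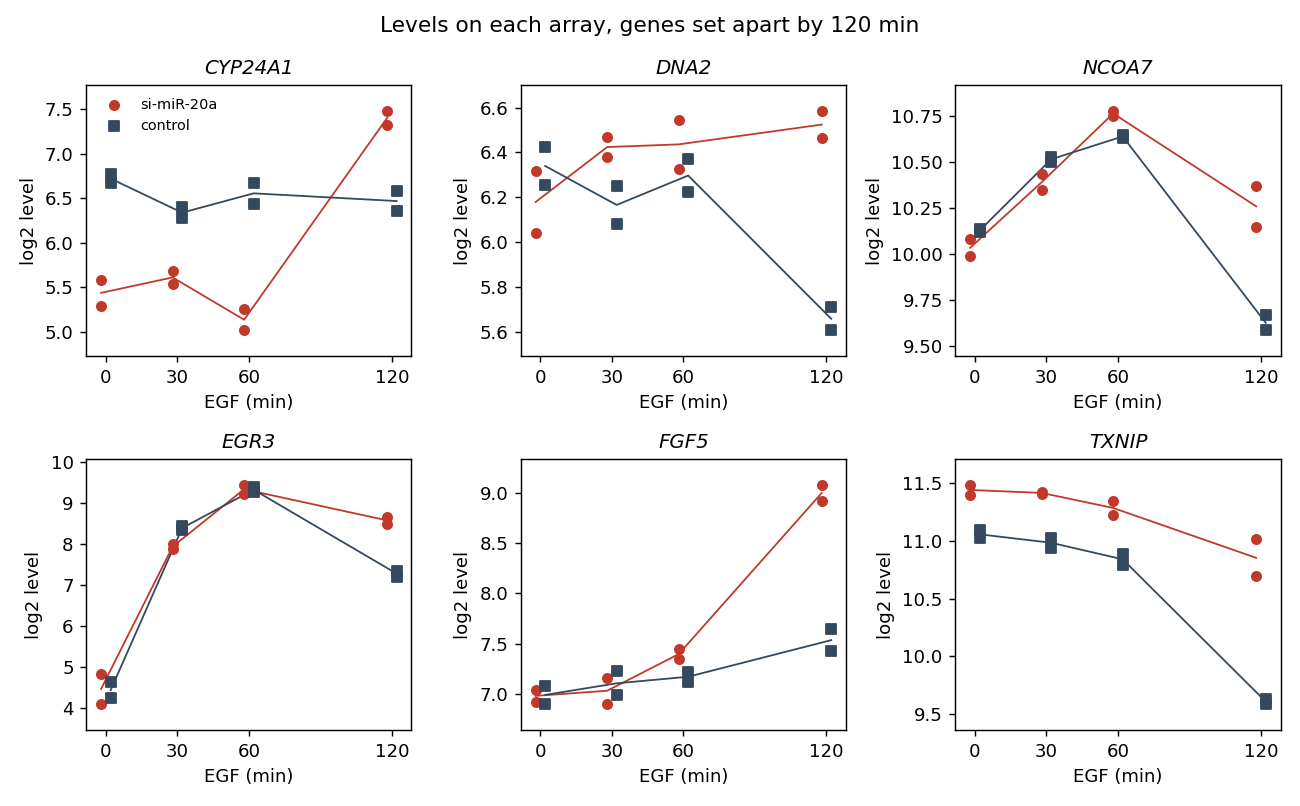
Log2 level on each array (y axis) against minutes of EGF (x axis) for 6 genes set apart at 120 min, with si-miR-20a arrays as circles, control arrays as squares, points shifted by 2 min to either side, and lines through the means of 2. CYP24A1 and FGF5 climb to 120 min in si-miR-20a cells, whereas DNA2, NCOA7, EGR3 and TXNIP stand lower at 120 min than at 60 min in control cells. In si-miR-20a cells TXNIP lies above both control arrays at every time. The y axes differ and do not start at 0.

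With 120 min alone as the late level limma called 17 probe sets, 16 higher and FGFR2 lower, and with 60 min alone it called 0. The 16 included FGF5 at 1.5 ± 0.21, EGR3 at 1.51 ± 0.22, PRDM1 at 1.35 ± 0.21, LIF at 0.88 ± 0.14, TXNIP at 0.84 ± 0.12, STC2 at 0.70 ± 0.11 and G2E3 at 0.61 ± 0.10 beside the 7 above.

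Among members of the gene lists, the 6 with the largest late minus early change in control cells were NR4A1, FOSB, NR4A3, IL24, EGR3 and SPRR2A. Of these, IL24 was called for the difference of the response, and EGR3 when 120 min alone stood for the late level. FOSB, an AP-1 subunit, was at 3.27 and 2.55, 8.99 and 8.86, 9.16 and 9.22, and 8.38 and 8.25 in si-miR-20a cells, against 3.50 and 3.85, 8.82 and 8.90, 9.02 and 8.95, and 7.91 and 7.91 in control cells. Its difference of the response was 0.66 ± 0.25, with a 95% interval of 0.12 to 1.19 (limma adjusted p = 0.76). At 0 min FOSB, NR4A3 and EGR3 lay below the lower quartile of the arrays on all 4, where levels are dim. NR4A3 was also below it on all 4 at 30 min, and NR4A1 at 0 min except on control replicate 1. NR4A1, an orphan nuclear receptor, had 0.60 ± 0.24 (interval 0.08 to 1.11, adjusted p = 0.79), and its relative NR4A3 had 0.72 ± 0.46 (interval -0.27 to 1.70, adjusted p = 0.9). SPRR2A, a cornified envelope protein, was lower in si-miR-20a cells at both ends, by -1.0 ± 0.19 and -0.78 ± 0.19, and its difference of the response was 0.22 ± 0.27 (interval -0.36 to 0.80). The interval was narrower for FOSL1, an AP-1 subunit that rose by 1.52 in si-miR-20a cells and by 1.53 in control cells, with a difference of -0.01 ± 0.13 and an interval of -0.29 to 0.27.

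MIR17HG, the precursor that holds miR-20a, rose from early to late in both, by 0.84 ± 0.12 in si-miR-20a cells (limma adjusted p = 0.00049) and by 0.68 ± 0.12 in control cells (adjusted p = 0.0047). It read 6.85 and 6.44, 6.56 and 6.79, 7.33 and 7.32, and 7.52 and 7.81 in si-miR-20a cells, against 6.83 and 6.59, 7.29 and 6.87, 7.46 and 7.38, and 7.60 and 7.86 in control cells. The MIR17HG difference of the response was 0.16 ± 0.17, with an interval of -0.20 to 0.52. The probe set reads the precursor, not the mature microRNA.

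Of 19 measured cytokines, chemokines and genes of prostaglandin synthesis, 1 was called for the difference of the response (IL24). At an unadjusted p under 0.05, 10 were higher and 0 lower, against 4.23% and 1.71% of all probe sets. The median difference of the response in the list was 0.35, against 0.013 over all probe sets. The 10 were IL24, CXCL8, LIF, PTGS2, IL20 (1.41 ± 0.29), CCL20 (1.30 ± 0.27), CXCL5 (0.57 ± 0.13), CXCL3 (0.49 ± 0.16), IL6 (0.35 ± 0.14) and CCL2 (0.35 ± 0.15). IL20 was dim where its value arises: it read 4.43 and 3.47 at 0 min in si-miR-20a cells and 4.85 and 4.0 at 120 min in control cells, below the lower quartile of the arrays. The list was mostly lower at the start: 14 of 19 had a lower early level (7.17% of all probe sets), 7 a lower late level (7.75%) and 3 a higher late level (8.95%), and its median difference was -0.63 early and 0.02 late.

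Cytokines differed among themselves in whether the gap closed. CXCL1, a neutrophil chemokine, kept it: the level was 10.01 and 9.99 at 0 min and 9.21 and 9.26 at 120 min in si-miR-20a cells, against 11.21 and 11.13 and then 10.65 and 10.51 in control cells. Its difference of the response was -0.12 ± 0.09, with an interval of -0.30 to 0.07, and ICAM1, a leukocyte adhesion molecule that was also lower throughout, had -0.06 ± 0.20. IL1B, an inflammatory cytokine, rose by 0.50 in si-miR-20a cells and by 0.46 in control cells, with a difference of 0.04 ± 0.07. CCL20 instead crossed over, at 6.72 and 6.66 at 0 min and 8.53 and 9.61 at 120 min in si-miR-20a cells, against 7.41 and 7.18 and then 7.50 and 8.02 in control cells, with a difference of the response that did not pass (limma adjusted p = 0.2).

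Genes of the cell cycle had 0 calls and mostly small positive values. Of 25 G1/S and DNA replication genes 10 were higher and 0 lower at an unadjusted p under 0.05, with a median of 0.17. Of 24 mitosis genes 6 were higher and 0 lower, with a median of 0.15. These counts stand against 4.23% of all probe sets higher and 1.71% lower. In the G1/S list the early level was higher for 6 genes (4.79% of all probe sets) and the late level for 15 (8.95%). The early level was lower for 0 genes (7.17%) and the late level for 0 (7.75%). MCM10, a DNA replication factor, was at 6.52 and 6.38, 6.17 and 6.47, 6.83 and 6.82, and 6.81 and 6.70 in si-miR-20a cells, against 6.52 and 6.24, 6.35 and 6.17, 6.12 and 6.27, and 6.22 and 6.16 in control cells. Its difference of the response was 0.53 ± 0.11 (limma adjusted p = 0.25). POLE2, a subunit of DNA polymerase epsilon, had 0.68 ± 0.18 (adjusted p = 0.49), and NUF2, a kinetochore protein, had 0.54 ± 0.12 (adjusted p = 0.26). POLE2 was dim in control cells at 60 and 120 min, below the lower quartile of the arrays.

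The counts of the next lists, all at an unadjusted p under 0.05, stand against 4.23% of all probe sets higher and 1.71% lower. Of 28 immediate early transcription factors 4 were higher (EGR3, FOSB, NR4A1 and ATF3) and 0 lower, with a median of 0.06. Of these 28, 20 rose from early to late in si-miR-20a cells and 18 in control cells (4.45% and 1.94% of all probe sets). Of 10 dual specificity phosphatases 3 were higher (DUSP1, DUSP10 and DUSP16), and of 15 receptor and ERK inhibitors 3 were higher (SOCS3, SPRY4 and SPRED1) and LRIG1, which marks EGF receptors for degradation, was lower. EGF family ligands gave 2 of 7, HBEGF and NRG1, and ERBB receptors 0 of 4, with EGFR at -0.03 ± 0.12. Of 35 measured targets of the miR-17 family from earlier literature, 3 were higher (TXNIP, WEE1 and RBL1) and LIMK1 was lower, with a median of 0.04 against 0.013 over all probe sets. Among NF-kappaB subunits and inhibitors, 2 of 11 were higher, TNFAIP3 and NFKB1. In the interferon list 1 of 24 was higher, the chemokine CXCL10, at 0.90 ± 0.21 (limma adjusted p = 0.33). CXCL10 was dim in si-miR-20a cells at 0 and 30 min, below the lower quartile of the arrays. The other 16 lists had medians from -0.04 to 0.10, with 0 to 4 members higher and 0 to 2 lower at an unadjusted p under 0.05.

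**Figure D4:**
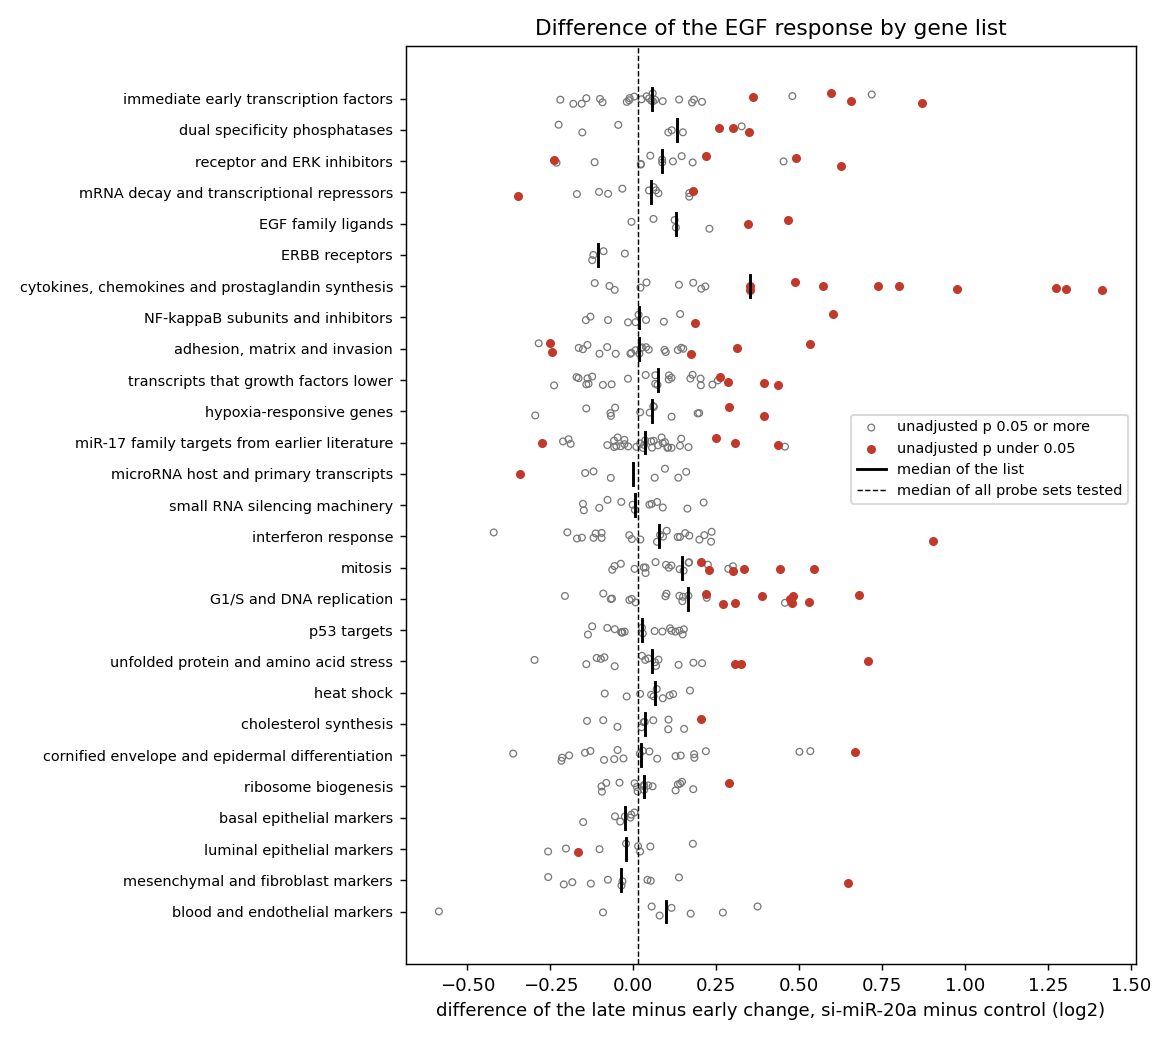
Each point is 1 measured member of a gene list, placed by its difference of the response (x axis, log2, si-miR-20a minus control), with filled points at an unadjusted p under 0.05, a black bar at the list's median and a dashed line at the median of all probe sets, 0.013. The cytokine list reaches farthest to the right, with a median of 0.35 and 10 filled points, and the G1/S list has a median of 0.17.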

How the data were processed

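The authors deposited log2 values, 1 per Affymetrix probe set, made with Affymetrix Expression Console per the submitters' processing notes. Its version, the summarisation and the normalization are not given in the sources used here. Array medians were 6.56 to 6.57, so the 24 arrays were nearly equal in distribution, and no further normalization was applied. The table held 33297 probe sets. The 19460 with exactly 1 gene symbol (18417 genes) were tested, 1754 with several symbols and 12083 not listed in the annotation were left out, and 19429 matched a RefSeq table by gene ID with 0 symbols changed. Where a gene had several probe sets, the one with the highest mean stands for it.

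Limma 3.58.1 in R 4.3.3 fitted 1 mean per group over 12 groups of 24 arrays (12 residual and 2.57 prior degrees of freedom), and contrasts used the 16 si-miR-20a and control arrays. Benjamini-Hochberg adjustment ran over 19460 probe sets, with calls at 0.05. The SD between replicates was 0.222 to 0.278 over probe sets in si-miR-20a groups and 0.184 to 0.223 in control groups. An exact permutation of 2 arrays against 2 cannot go below p = 0.33, so single times draw on the pooled spread. The number of arrays limits the precision.

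Replicate numbers were not taken to pair the arrays: over 28 pairs of groups the correlation of deviations ran from -0.326 to 0.55 (median 0.14), and 15, not all, were above 0.1. The rule named the 5 smallest p in each direction, the 6 list members with the largest change in control cells, called list members and MIR17HG. Other genes were picked with their values in view. The comparison and the 27 lists were chosen with earlier results of these data known, and no p was adjusted over a list. Alternatives were the 16 arrays alone, a replicate block, quantile normalization, median centring, a filter on dim probe sets, all probe sets, a trended robust variance, array weights, other times and each array left out. The fit was tested on simulated data. Python 3.11.15, pandas 2.3.3 and matplotlib 3.10.9 made tables and figures.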

Additional observations from a re-analysis of the deposited data

Results flagged for a closer look

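Results of a test of the difference between the 2 transfections are listed here with their values. For the difference of the response from early to late, si-miR-20a minus control, it was IL24, at 0.98 on the log2 scale. For the response at 120 min against 0 min there were 7 genes: CYP24A1 at 2.21, CXCL8 at 1.69, PTGS2 at 1.53, IL24 at 1.30, DNA2 at 1.03, TNFAIP3 at 0.84 and NCOA7 at 0.73. Arrays outside this comparison also gave a signal: with the 8 si-miR-671 arrays in place of the si-miR-20a arrays, limma called 101 probe sets for the same difference of the response, 35 higher and 66 lower. Some genes described above passed there and not with si-miR-20a. LIF had 0.74 with si-miR-20a and 0.60 with si-miR-671 (adjusted p = 0.056 and 0.032), HBEGF 0.46 and 0.46 (0.058 and 0.017), TNFSF18 0.72 and 1.0 (0.19 and 0.0097), BTN3A1 -0.47 and -0.71 (0.19 and 0.007) and DUSP1 0.35 and 0.45 (0.49 and 0.041). CXCL1 had -0.12 and -0.51 (0.92 and 0.019). The 7 genes called at 120 min did not pass for this difference with si-miR-671 (limma adjusted p from 0.11 to 0.73). Their values there were IL24 0.47, CXCL8 0.48, PTGS2 0.24, TNFAIP3 0.32, NCOA7 0.29, DNA2 0.10 and CYP24A1 -0.62. Both comparisons share the 8 control arrays, and the difference between the counts was not tested.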

How the results depend on the processing

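The count of calls for the difference of the response, 1 as reported, was 0 with all probe sets, with array weights and with only the 16 arrays, 7 with a trended robust variance and 11 among probe sets with a mean above the median. It was 0 with 60 min alone as late, 17 with 120 min alone as late, 0 with 30 min alone as early, 101 with si-miR-671 in place of si-miR-20a and 1156 at an unadjusted p under 0.05, a threshold added after seeing the data. It stayed at 1 with quantile normalization, median centring, the replicate block and 0 min alone as early, where the gene was PTGS2. IL24 was called in 4 of 7 other settings of the fit (adjusted p from 0.0072 to 0.17). At 120 min against 0 min the 7 calls became 3 with all probe sets, 2 with array weights, 3 with median centring, 2 with only the 16 arrays and 12 among those above the median, and at 60 min 0 became 1 with all probe sets. With only the 16 arrays the early to late calls were 585 in si-miR-20a cells, against 1100 as reported, and 292 in control cells, against 473, and those at 0 min 316, against 646. With array weights the first of these was 677. Leaving out 1 array at a time gave 0 to 14 calls for the difference of the response, 0 to 2, 0 to 1 and 0 to 195 at 30, 60 and 120 min, and 225 to 771 at 0 min. It gave 602 to 2229 from early to late in si-miR-20a cells, 291 to 531 in control cells, 1435 to 2649 for the early and 2246 to 3686 for the late difference. A lone array was taken to vary like the other groups. Apart from settings that test more probe sets or use fewer arrays, the cause was not tested. In the fits with other normalizations, filters, weights, variance models, a block or 1 array left out, 0 values of the genes followed through them were reversed, 538 stayed on their side of the threshold, 99 lost a call and 24 gained one. With 60 min alone as late, CYP24A1 changed sign, from a difference of 0.76 to -0.41, neither of them called. The replicate block, as with 1 call above, is given here since the numbers were not taken to pair the arrays.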
